A study of Mus musculus with 46 samples.

Results

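The passenger strands of the let-7 family were followed in mouse brain, heart and liver during post-mortem storage. The group was chosen by name and comprises 7 miRNAs, mmu-let-7a-1-3p, mmu-let-7b-3p, mmu-let-7c-1-3p, mmu-let-7d-3p, mmu-let-7e-3p, mmu-let-7f-1-3p and mmu-let-7i-3p (mmu, for mouse, is left out below), of the 1881 mouse miRNAs on the array. All 7 were among the 815 miRNAs detected on at least 5 of the 45 analysed arrays. The group was put together with the RNA integrity result of let-7i-3p known, so relations to RNA integrity are given below as a description, with no test.

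The tissue came from male C57BL6 mice of an Il1a knock-out strain, a deletion that every sample carried. Organs were divided after death, and the pieces were kept at 4 °C or at room temperature (RT, 18 to 20 °C) for 0, 1, 3, 6, 12, 24, 48 or 96 h by the labels. Each array held the total RNA of 1 piece, and all pieces of a tissue at 1 temperature came from 1 animal and lay on 1 slide. By the methods, brain, heart and liver were those of the same animal, so the arrays kept at 4 °C and those kept at RT stand for 1 animal each, and the pieces of different tissues are not independent of each other. Brain had 8 arrays at 4 °C and 8 at RT, heart 7 and 8, and liver 6 and 8. A further heart array (4 °C, 0 h), named in the methods as of low quality, stayed out. Liver pieces of 6 h and 96 h at 4 °C were not analysed here. RNA integrity was given as the RIN value, which falls as ribosomal RNA breaks down and ran from 2.2 to 9.1. The p-values below measure the spread between pieces of the same organs, while for any 1 tissue the slide, the animal and the temperature cannot be told apart.

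The values are the deposited log2 values after variance stabilizing normalization (VSN), which bends towards a linear scale at low signal and so understates differences between dim signals. Tissue identity was checked with the labelled tissues' own miRNAs. The liver miRNA miR-122-5p had a median VSN value of 14.86 in liver, the muscle miRNA miR-1a-3p 14.46 in heart and the neuronal miRNA miR-124-3p 13.41 in brain, and miR-1a-3p and miR-124-3p were detected on 2 and 3 of the 14 liver arrays. Outside their own tissues miR-122-5p was also detected on 15 of 15 heart arrays (median 6.63) and 15 of 16 brain arrays (median 2.26), miR-1a-3p on 16 of 16 brain arrays (median 5.60) and miR-124-3p on 2 of 15 heart arrays. The part of RNA from another tissue in the passenger strand values was not tested. The red cell miRNA miR-451a was detected on every array, with medians of 9.52 in brain, 13.30 in heart and 10.23 in liver, and of the other blood miRNAs (miR-144-3p, miR-486a-5p and the myeloid miR-223-3p) each also had its highest median in heart. The part of blood in the passenger strand values was not tested. Between 268 and 798 miRNAs were detected per array. Among the 45 arrays, 2 stood apart for the let-7 family. On the liver array of 0 h at 4 °C all 7 guide strands lay below every other liver array with RIN over 6, with let-7a-5p at 8.96 against 10.75 or more. On the brain array of 1 h at RT all guides except let-7b-5p were at their highest brain value, with let-7a-5p at 13.65.

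Each let-7 gene is transcribed as a hairpin that Drosha and Dicer cut into a duplex. The strand from the 5p arm, the guide, is usually kept by an Argonaute protein and silences growth and stem cell genes such as Hmga2, Lin28a and the Ras genes, whereas the strand from the 3p arm, the passenger, is mostly discarded. The family accumulates as cells differentiate, and LIN28 proteins block its maturation in stem cells. Passenger strands are a faint by-product of an abundant family.

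Seeds decide which transcripts a loaded strand can pair with, and here the seeds set the passenger strands apart from the guides. The mature sequences from RefSeq (GRCm38.p6) are shown 5′ to 3′ with the seed, bases 2 to 8, in capitals, and the guide of the let-7e hairpin is given for comparison.
let-7a-1-3p: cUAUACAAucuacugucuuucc
let-7b-3p: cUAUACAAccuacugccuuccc
let-7f-1-3p: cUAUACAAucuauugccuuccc
let-7d-3p: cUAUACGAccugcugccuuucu
let-7e-3p: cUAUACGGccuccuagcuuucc
let-7c-1-3p: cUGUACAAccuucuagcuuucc
let-7i-3p: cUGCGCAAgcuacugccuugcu
let-7e-5p: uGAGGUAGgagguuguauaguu

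All strands were 22 bases long. The 7 passenger strands carried 5 seeds. UAUACAA was shared by let-7a-1-3p, let-7b-3p and let-7f-1-3p, and in RefSeq also by let-7c-2-3p and miR-98-3p, whereas the seeds of let-7c-1-3p, let-7d-3p, let-7e-3p and let-7i-3p each belonged to 1 of the 1679 mature mouse miRNA names. The 7 guides carried the single seed GAGGUAG, which 11 names held. Passenger strands differed from each other at 2 to 11 of 22 bases (median 6 over 21 pairs), guides at 1 to 6 (median 3). The closest passengers were let-7b-3p and let-7f-1-3p, 2 bases apart, and the farthest were let-7e-3p and let-7i-3p, 11 bases apart. The sequence of let-7a-1-3p is identical to that of let-7c-2-3p, which has no row of its own on the array, so a signal named let-7a-1-3p can come from either hairpin.

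The hairpins of the 7 strands lie on 5 chromosomes. Mirlet7d, Mirlet7f-1 and Mirlet7a-1 form a cluster on the minus strand of chromosome 13, with let-7d-3p at chr13:48536024-48536045, let-7f-1-3p at chr13:48537833-48537854 and let-7a-1-3p at chr13:48538188-48538209, and 1714 and 261 bases between the hairpins. The strand let-7b-3p (chr15:85707379-85707400, plus strand) has the hairpin of let-7c-2 as its neighbour at a distance of 621 bases. The strand let-7c-1-3p (chr16:77599717-77599738, plus strand) lies by Mir99a, 656 bases away, and let-7e-3p (chr17:17830411-17830432, plus strand) by Mir125a, 367 bases away. The let-7i-3p site is at chr10:122985642-122985663 on the minus strand. The passenger strands of let-7e, let-7i and let-7c-1 differed in detection between tissues. The hairpins of let-7e and let-7i are shown whole with the passenger strand in capitals and the guide in the opposite arm.
Mirlet7e: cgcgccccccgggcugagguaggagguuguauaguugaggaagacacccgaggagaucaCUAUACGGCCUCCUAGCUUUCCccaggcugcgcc
Mirlet7i: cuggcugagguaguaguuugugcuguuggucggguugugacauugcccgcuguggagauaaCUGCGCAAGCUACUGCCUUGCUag

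Detection by the scanner software divided the strands by tissue. The passenger of the let-7e hairpin, let-7e-3p, was detected on 16 of 16 brain arrays, on 1 of 15 heart arrays (6 h at RT) and on 0 of 14 liver arrays. Detection of let-7i-3p was found on 15 of 16 brain and 12 of 15 heart arrays but on 0 of 14 liver arrays, and that of let-7c-1-3p on 12 of 16 brain, 13 of 15 heart and 0 of 14 liver arrays. For these strands a liver value is therefore a signal not well above background. The other strands were detected in all tissues, let-7a-1-3p on 41, let-7d-3p on 40, let-7b-3p on 38 and let-7f-1-3p on 32 of 45 arrays. Of the other 3p arms of the family on the array, let-7a-2-3p, let-7f-2-3p, let-7g-3p and miR-98-3p were detected on 0 arrays. Guide strands were detected on 44 (let-7e-5p) or all 45 arrays.

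The signals were dim. Before scaling, the background-subtracted signals of the 7 strands ran from -1.18 to 14.3 scanner units, and the software's own error was a median of 13.8% (let-7e-3p) to 25.5% (let-7c-1-3p) of the signal where a strand was detected. For none of the 7 strands was the flag a threshold on the signal. Undetected arrays reached 5.29 units for let-7b-3p, above 19 of its 38 detected arrays, and 5.92 units for let-7f-1-3p, above 23 of 32. They reached 3.58 units for let-7c-1-3p (above 20 of 25), 3.05 for let-7d-3p (18 of 40) and 1.78 for let-7i-3p (12 of 27). Fewer detected arrays lay below that level for let-7a-1-3p (5 of 41) and let-7e-3p (2 of 17). The software adds up only the probes it detects, out of 4 per strand. Where a strand was not detected, the deposited value rests on all 4 probes, so detected and undetected arrays carry unlike sums. For let-7c-1-3p the detected arrays held 1 probe (13 arrays) or 2 (12 arrays), whereas its liver arrays held all 4. Where let-7b-3p and let-7f-1-3p were detected, the software summed all 4 probes on 20 and 14 arrays and fewer probes on the others. By contrast 1 probe alone was counted on every detected array for let-7a-1-3p and let-7i-3p. With all 4 probes summed on every array, let-7b-3p and let-7f-1-3p gave an r of 0.95 over the 45 arrays, against 0.60 as deposited. They share arrays and scaling and nearly all of their bases, and the part of these in r was not tested.

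Tissues were compared on the 33 arrays with RIN over 6, 14 of brain, 13 of heart and 6 of liver, with limma and the slide as a random block. The brain-detected let-7e-3p and the seed-sharing let-7a-1-3p were higher in brain than in heart, and let-7c-1-3p, let-7d-3p and let-7f-1-3p were lower. Thus 5 of 7 strands passed an adjusted p of 0.05, where 69.1% of the 815 miRNAs did (47.1% higher and 22.0% lower in brain), and the median difference was -0.41 for the strands and 0.44 for all miRNAs. Between brain and liver 5 of 7 passed, 3 higher and 2 lower in brain, where 72.5% of all did (57.9% higher and 14.6% lower), and between heart and liver 2 of 7, both higher in heart, where 54.6% did (44.9% higher and 9.69% lower). The median differences there were -0.06 and 0.11 for the strands, and 1.11 and 0.60 for all miRNAs. In no pair of tissues did all arrays of 1 tissue lie above all of the other for any of the 7 strands. For all miRNAs this held for 30.3% between brain and heart, 37.5% between brain and liver and 19.3% between heart and liver. Other scalings moved the median of all miRNAs, to -0.05 (brain minus heart) and 0.04 (brain minus liver) with quantile normalization, so the differences below are relative to the chosen scale. The deposited values also mix arrays with unlike numbers of probes summed. With all 4 probes summed on every array 5 of 7 strands passed in each pair of tissues.

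**Figure D1:**
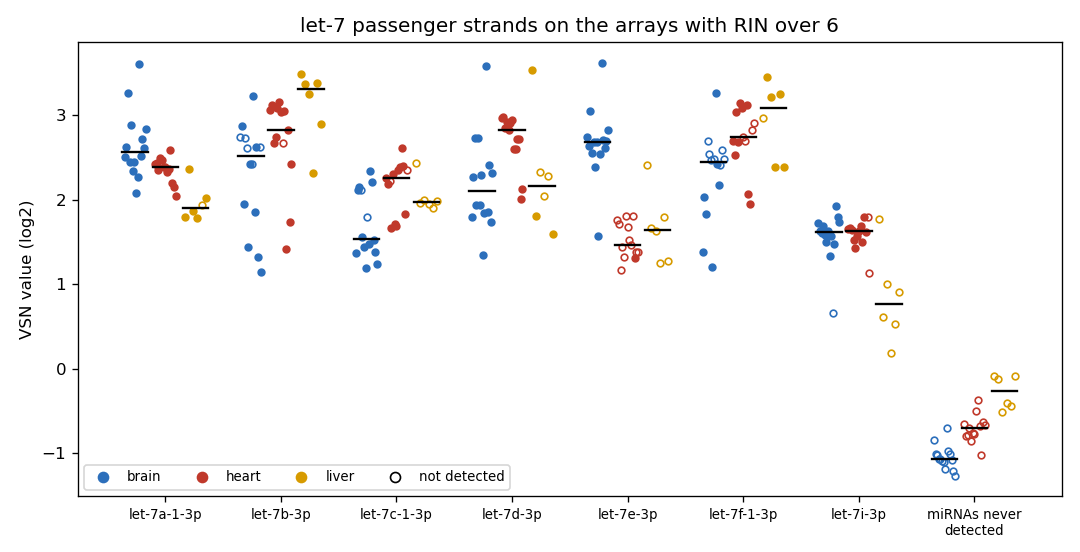
VSN value (log2) of each passenger strand on the 14 brain, 13 heart and 6 liver arrays with RIN over 6, with the median as a bar, filled points where detected and open points where not. The last column gives, per array, the median of the 809 miRNAs detected on no array. Levels cannot be compared between strands. Within a strand, the points mix arrays with unlike numbers of probes summed, which limits the comparison between tissues. All let-7e-3p points are filled in brain and, of the 19 heart and liver points, 1 is.

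The strand let-7e-3p was higher in brain than in heart and liver. Its VSN values in brain ran from 1.57 to 3.62 with a median of 2.69, those in heart from 1.17 to 1.81 with a median of 1.47, and those in liver from 1.25 to 2.41 with a median of 1.65. Of the brain arrays only that of 96 h at 4 °C, with the lowest value, lay within the heart range. The mean difference was 1.15 ± 0.15 (SE) between brain and heart (limma, adjusted p = 3.89e-08) and 1.00 ± 0.19 between brain and liver (limma, adjusted p = 1.91e-05). In heart it was detected on 1 of the 13 arrays with RIN over 6, so the heart level is mostly a signal not well above background, and the size of that difference is not exact. As let-7e-3p was not detected in liver, the brain level was at least 1.81-fold higher, taking the higher of each liver array's detection limit and the strand's own value. Without the brain array of 1 h at RT the differences were 1.08 and 0.93 and both passed. The brain-heart call held under every scaling, filter and array choice tried, and the brain-liver call under all except normexp background correction (0.05). Heart and liver differed by -0.15 ± 0.19 (limma, adjusted p = 0.52).

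The strand let-7a-1-3p, whose sequence the let-7c-2 hairpin also holds, was highest in brain and lowest in liver. Its values ran from 2.08 to 3.61 (median 2.57) in brain, from 2.05 to 2.59 (median 2.39) in heart and from 1.78 to 2.37 (median 1.90) in liver. The tissues overlapped, and the brain arrays of 1 h at RT and 3 h at 4 °C were the high ones, at 10.4 and 9.9 scanner units against 6.4 units or less on other brain arrays. Brain exceeded liver by 0.69 ± 0.16 (limma, adjusted p = 0.000304). The differences between brain and heart, 0.30 ± 0.13 (limma, adjusted p = 0.040), and heart and liver, 0.39 ± 0.16 (limma, adjusted p = 0.042), were small. Without the brain array of 1 h at RT the former was 0.23 and did not pass, and without the liver array of 0 h the latter was 0.36 and did not pass. With the pieces of the same animal and hour as a block the latter was 0.40 and did not pass. Scaling decided its direction, since quantile normalization turned the brain-heart difference to -0.47, and normexp background correction gave -0.092 against heart, -0.13 against liver and -0.040 between heart and liver.

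The level of let-7i-3p was lower in liver than in brain and heart, between which the test did not pass. The brain values ran from 0.65 to 1.92 (median 1.62), the heart values from 1.13 to 1.80 (median 1.63) and the liver values from 0.18 to 1.77 (median 0.76). The low brain array was that of 1 h at RT, on which let-7i-3p was not detected, and the high liver array was that of 0 h at 4 °C. Brain and heart differed by -0.027 ± 0.14, with a 95% interval from -0.30 to 0.24 (limma, adjusted p = 0.86), and by 0.29 with a call where arrays were not scaled. Liver was lower than brain by a difference of 0.73 ± 0.17 (limma, adjusted p = 0.00037) and lower than heart by 0.75 ± 0.17 (limma, adjusted p = 0.000527). With each liver array at no less than its detection limit the liver mean was 1.67, above the brain and heart means, so no fold is given. Without the liver array of 0 h the differences were 0.91 and 0.93.

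The remaining strands pointed the other way between brain and heart. The strand let-7c-1-3p had values of 1.20 to 2.34 (median 1.54) in brain and 1.67 to 2.61 (median 2.26) in heart, a difference of -0.45 ± 0.15 (limma, adjusted p = 0.00767). For let-7d-3p, of the chromosome 13 cluster, brain ran from 1.35 to 3.58 (median 2.10) and heart from 2.01 to 2.98 (median 2.83), a difference of -0.50 ± 0.20 (limma, adjusted p = 0.0297). The highest brain value of let-7d-3p was again that of 1 h at RT, and without it the difference was -0.61. Within the RT slides alone the difference of let-7d-3p was -0.17 and did not pass, whereas let-7c-1-3p passed there (-0.63) and not within the 4 °C slides (-0.29). With scaling to the 75th percentile neither passed (-0.56 and -0.62 for let-7c-1-3p and let-7d-3p), with the same direction.

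The nearly identical let-7b-3p and let-7f-1-3p were the only strands lower in brain than in liver by the test. The values of let-7b-3p ran from 1.15 to 3.22 (median 2.52) in brain, 1.42 to 3.16 (median 2.82) in heart and 2.31 to 3.49 (median 3.32) in liver, and the brain-liver difference was -0.83 ± 0.29 (limma, adjusted p = 0.00987). For let-7f-1-3p brain ran from 1.20 to 3.27 (median 2.45), heart from 1.95 to 3.15 (median 2.74) and liver from 2.39 to 3.46 (median 3.09). Its differences were -0.65 ± 0.24 between brain and liver (limma, adjusted p = 0.0147) and -0.44 ± 0.19 between brain and heart (limma, adjusted p = 0.0394). With the pieces of the same animal and hour as a block, let-7b-3p between brain and liver (-0.61) and let-7f-1-3p between brain and heart (-0.41) did not pass. The scaling moved in the same direction as these differences, and its part in them was not tested. On the same arrays the 809 miRNAs never detected had mean VSN levels of -1.05 in brain, -0.71 in heart and -0.28 in liver, and unscaled let-7b-3p signals had medians of 4.63 units in brain and 4.49 in liver, those of let-7f-1-3p 4.28 and 4.43. With no scaling between arrays neither passed between brain and liver (-0.33 and -0.11). On the RT slides alone, with 1 liver array over RIN 6, the difference of let-7f-1-3p was 0.17. With all 4 probes summed on every array both strands passed in both comparisons, at -0.28 and -0.25 against heart and -0.58 and -0.54 against liver.

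The guide strands of the same hairpins were mostly highest in brain and lowest in liver, the direction in which more of all miRNAs were called. In brain 6 of 7 guides were higher than in heart (all except let-7f-5p, 0.44 ± 0.21, limma, adjusted p = 0.063), and 7 of 7 were higher than in liver. In heart 7 of 7 were higher than in liver. Of all 815 miRNAs 47.1%, 57.9% and 44.9% were called higher in these comparisons. The median differences were 0.86, 2.34 and 1.42 for the guides and 0.44, 1.11 and 0.60 for all miRNAs. For the let-7e hairpin both arms were higher in brain, the guide let-7e-5p by 2.90 ± 0.20 over heart and by 4.42 ± 0.25 over liver. For the hairpins of let-7c-1 and let-7d the arms went in opposite directions between brain and heart, with the guides at 1.01 ± 0.20 and 0.57 ± 0.19. As VSN compresses dim signals and a guide name can cover several loci, sizes were not compared between the arms.

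**Figure D2:**
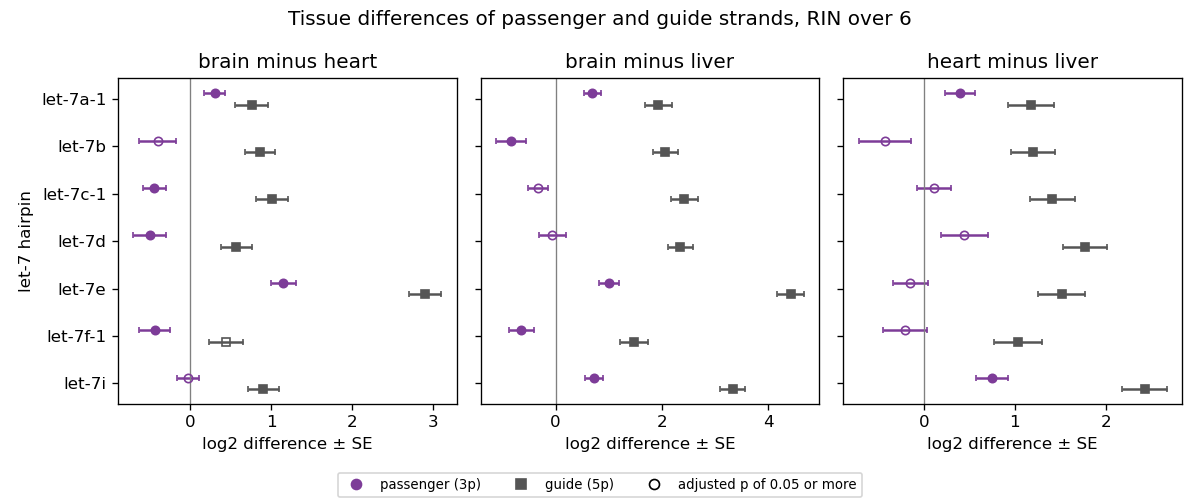
Difference between tissues (log2, ± SE from limma) of the passenger strand (circles) and the guide strand (squares) of each hairpin on the arrays with RIN over 6, open where the adjusted p was 0.05 or more. The guides lie to the right of 0 in all panels, and the passengers lie on both sides.

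During storage at 4 °C no passenger strand had a called change over time. Pearson's r of the VSN value with the hours of storage over 21 arrays lay between -0.40 (let-7c-1-3p) and 0.01 (let-7f-1-3p), and 0 of 7 passed after Benjamini-Hochberg adjustment over 815 miRNAs, where 5.28% of all miRNAs did. At an unadjusted p of 0.05 the count was also 0 by Pearson's r, and the rank correlation fell below it for let-7c-1-3p (rho = -0.47, permutation p = 0.031) and let-7i-3p (rho = -0.48, permutation p = 0.027), neither of which was adjusted. In brain at 4 °C the let-7e-3p value was 2.74 at 0 h and 1.57 at 96 h, and the other 7 brain arrays lay at 2.39 or more. The 96 h array had 1 probe summed and the others 2. With all 4 probes summed it lay at 2.11 and the others at 2.48 or more.

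At RT every array of 48 h and 96 h had a RIN of 5.5 or lower, so storage time and RIN largely overlap there. As the RIN result of let-7i-3p was known when the group was chosen, the count and p-values at RT are a description. The VSN values of 4 of 7 passenger strands fell with storage time at RT over 24 arrays, where those of 17.5% of all miRNAs fell. They were let-7a-1-3p (r = -0.68, permutation p = 0.00049, rho = -0.59, permutation p = 0.00274, adjusted p = 0.00127), let-7c-1-3p (r = -0.68, permutation p = 0.00026, rho = -0.65, permutation p = 0.00093, adjusted p = 0.00125), let-7d-3p (r = -0.46, permutation p = 0.024, rho = -0.38, permutation p = 0.069, adjusted p = 0.045) and let-7e-3p (r = -0.47, permutation p = 0.021, rho = -0.37, permutation p = 0.079, adjusted p = 0.042). Without the liver and brain arrays of 96 h the r values were -0.58, -0.54, -0.43 and -0.44, and without all 3 arrays of 96 h -0.48, -0.44, -0.29 and -0.36. The values of let-7b-3p (r = -0.23), let-7f-1-3p (r = -0.36) and let-7i-3p (r = -0.29) did not pass. Without the brain array of 1 h at RT let-7d-3p (r = -0.45) and let-7e-3p (r = -0.45) no longer passed. With tissue as a block let-7i-3p did pass (r = -0.49, adjusted p = 0.029). The r values were then -0.82 for let-7a-1-3p, let-7c-1-3p and let-7e-3p and -0.47 for let-7d-3p, which all passed. With this block let-7b-3p (r = -0.26) and let-7f-1-3p (r = -0.37) did not pass.

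On the RT arrays with RIN over 6 alone 0 of 7 strands passed, with r from -0.43 to 0.16. From 0 h to 96 h at RT let-7a-1-3p went from 2.27 to 1.49 in brain, from 2.32 to 1.02 in heart and from 2.02 to 0.39 in liver. The strand let-7c-1-3p went from 1.48 to 0.41, from 2.35 to 0.52 and from 1.99 to 0.12, and let-7e-3p from 2.55 to 1.53 in brain, the tissue in which it was detected. On these RT arrays let-7c-1-3p was not detected in liver at any time or in brain at 48 h and 96 h. In liver let-7a-1-3p was not detected from 24 h on. On the same arrays the median of the never detected miRNAs went from -0.70 to -1.49 in brain, from -0.51 to -1.37 in heart and from -0.09 to -1.18 in liver. Its part in the falls was not tested. Without scaling between arrays 0 of 7 strands passed, and r of let-7d-3p was 0.18. In unscaled units with all 4 probes summed, let-7e-3p in brain went from 3.8 at 0 h to 4.8 at 96 h. In brain, heart and liver let-7a-1-3p went from 4.2 to 6.5, from 5.5 to 4.1 and from 2.5 to 1.7. The same sums of let-7c-1-3p went from 2.9 to 1.6, from 4.7 to 3.0 and from 1.4 to 1.2.

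In the deposited values the course of let-7d-3p at RT differed between tissues. It fell in brain from 1.85 at 0 h to 0.60 at 96 h and in heart from 2.60 to 0.94, and it stood at 1.60 and 2.09 in liver, with 2.66 at 48 h. The liver values rest on 1 probe at 0 h and on 4 at 48 h and 96 h. With all 4 probes summed on every array let-7d-3p went from 2.52 to 1.04 in brain and from 2.80 to 1.70 in heart. In liver it then went from 2.16 to 2.09, with 2.66 at 48 h. The slopes were fitted on the deposited values alone. Per 24 h they were -0.49 in brain, -0.46 in heart and 0.22 in liver (limma moderated F = 8.62, adjusted p = 0.0126). This was the only 1 of the 7 strands with a called interaction at RT, where 24.5% of all miRNAs had one. At 4 °C 0 of 7 passed, where 7.61% of all did, with let-7i-3p nearest (limma, adjusted p = 0.075) and let-7e-3p at an unadjusted p of 0.041. Without the brain array of 1 h the adjusted p at RT for let-7d-3p was 0.00544, and without the 3 arrays of 96 h it was 0.039 (limma). Of the guides, 5 of 7 fell at RT over all tissues and 7 of 7 had a called interaction. The guide let-7d-5p went from 9.30 to 3.59 in liver, from 10.92 to 9.60 in brain and from 10.74 to 9.55 in heart.

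**Figure D3:**
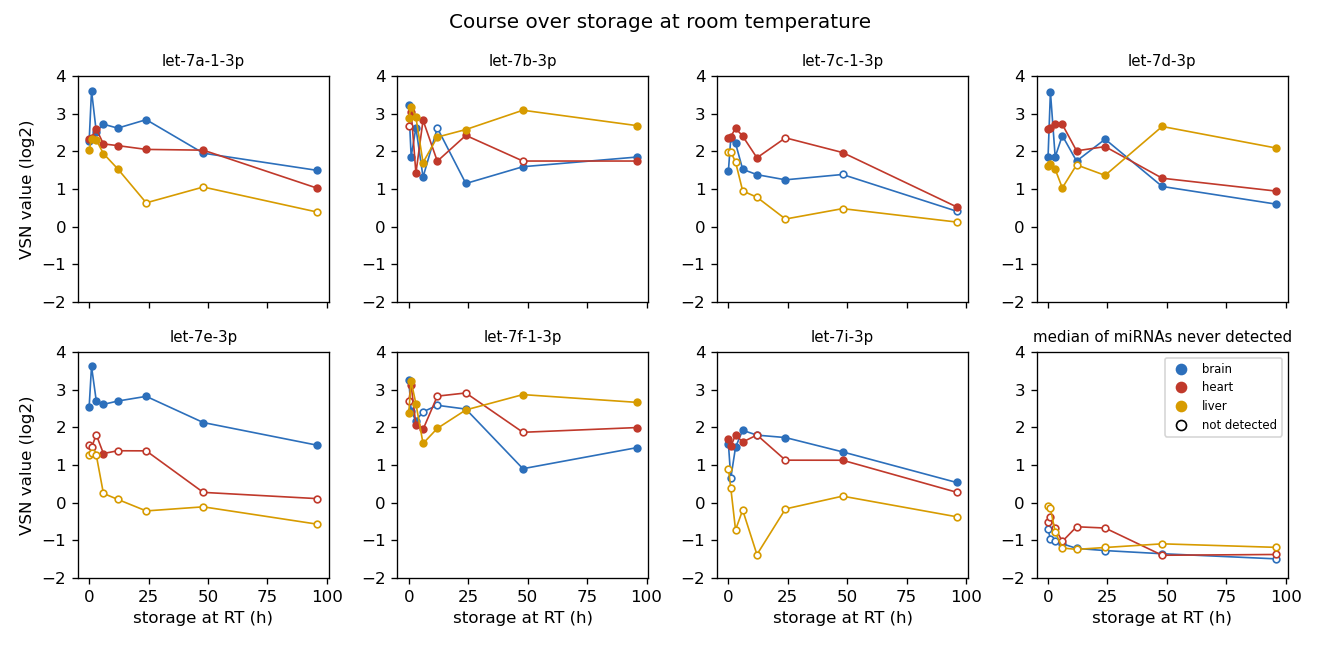
VSN value (log2) of each passenger strand against hours of storage at RT, with 1 array per tissue and time, filled where detected. The last panel gives the median of the 809 miRNAs never detected. The lines of let-7a-1-3p, let-7c-1-3p and let-7e-3p end lowest in liver at 0.39, 0.12 and -0.57, whereas those of let-7b-3p, let-7d-3p and let-7f-1-3p end highest in liver at 2.68, 2.09 and 2.67.

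Unscaled liver signals set the same strands apart. The RT series of let-7b-3p gave 3.1 units (0 h), 9.7 (24 h), 12.2 (48 h) and 14.3 (96 h). The let-7f-1-3p signal was 2.0, 8.9, 10.3 and 14.1 units and that of let-7d-3p 0.9, 3.5, 8.7 and 9.0 units at these times. The 96 h signals of let-7b-3p and let-7f-1-3p were the highest of all 45 arrays. In the same pieces let-7a-1-3p had 1.4 units at 0 h and 1.7 at 96 h, let-7c-1-3p 1.4 and 1.2 units, let-7e-3p 0.6 and 0.1 units, and let-7i-3p 0.3 and 0.4 units. The guide let-7b-5p fell in these pieces from a VSN value of 10.05 to 6.87 and let-7f-5p from 11.39 to 5.53. The number of probes that the software summed rose along these series, from 3 to 4 for let-7b-3p, from 2 to 4 for let-7f-1-3p and from 1 to 4 for let-7d-3p. With all 4 probes summed at every time the signals at 0 h and 96 h were 4.0 and 14.3 units for let-7b-3p, 3.9 and 14.1 units for let-7f-1-3p and 1.6 and 9.0 units for let-7d-3p. The let-7a-1-3p signal, with 1 probe summed at 0 h and all 4 at 96 h as deposited, was then 2.5 and 1.7 units. There was 1 piece per time point, so the unscaled course has no replicate check.

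As a description, with no test since the RIN relation was known when the group was chosen, Pearson's r of the VSN value with RIN over 45 arrays was 0.82 for let-7i-3p, 0.77 for let-7c-1-3p, 0.73 for let-7e-3p, 0.71 for let-7a-1-3p, 0.60 for let-7d-3p, 0.24 for let-7f-1-3p and 0.18 for let-7b-3p. The first 5 lie past the adjusted p of 0.05 used for all miRNAs, where 33.6% of them had a positive call, and nothing is read from this count. On the 33 arrays with RIN over 6 alone 0 of 7 lay past it, and r was -0.048 for let-7a-1-3p, -0.027 for let-7e-3p, 0.39 for let-7c-1-3p, 0.46 for let-7d-3p and 0.40 for let-7i-3p. The median level of the miRNAs never detected had an r of 0.45 with RIN, and the scale that VSN gave to the arrays an r of 0.65. For unscaled signals r was 0.51 for let-7i-3p, 0.59 for let-7c-1-3p, 0.36 for let-7e-3p, 0.30 for let-7a-1-3p, 0.09 for let-7d-3p, -0.51 for let-7b-3p and -0.59 for let-7f-1-3p. Their part in the relation was not tested.

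**Figure D4:**
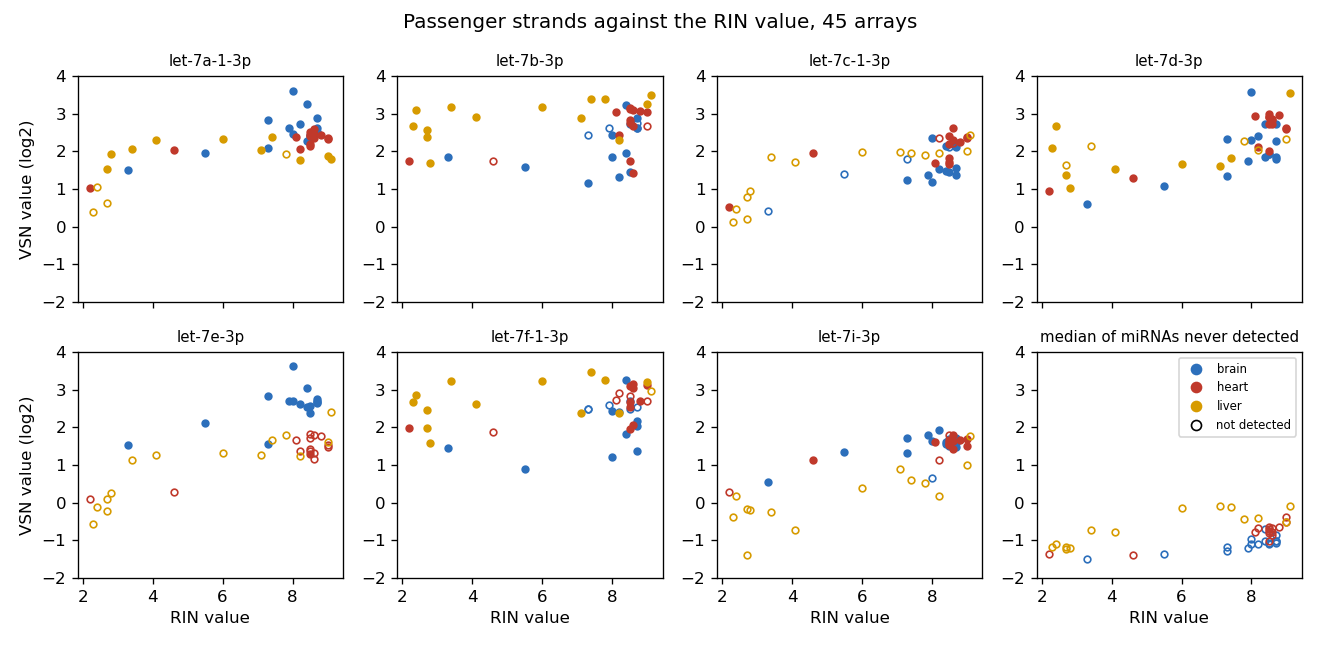
VSN value (log2) of each passenger strand against the RIN value over 45 arrays, coloured by tissue and filled where detected, with the median of the 809 miRNAs never detected in the last panel. Below a RIN of 3 let-7c-1-3p lies between 0.12 and 0.95, whereas the liver values of let-7b-3p there lie between 1.70 and 3.09.

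Liver alone is again given as a description. Between the 8 liver arrays with RIN of 6 or lower and the 6 with RIN over 6 the mean difference was -1.28 for let-7e-3p, -1.15 for let-7i-3p and -1.03 for let-7c-1-3p, the strands not detected in liver, and these 3 of 7 lay past the rule of the Wilcoxon-Mann-Whitney test, where 7.61% of all miRNAs were called lower, and nothing is read from this count. The liver values of these 3 strands are signals not well above background on every array. The others differed by -0.37 (let-7f-1-3p) to -0.51 (let-7d-3p). The miRNAs never detected differed by -0.67.

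By the pattern over all 45 arrays, the miRNAs outside the family most like let-7e-3p were miR-872-3p (r = 0.94), miR-99a-3p (r = 0.91) and miR-335-3p (r = 0.91), each detected on 16 arrays. Those most like let-7a-1-3p were miR-190a-5p (r = 0.88), miR-29a-5p (r = 0.88) and miR-3068-5p (r = 0.87), and those most like let-7i-3p were miR-149-5p (r = 0.81), miR-467d-3p (r = 0.80) and miR-150-5p (r = 0.78). For let-7b-3p and let-7f-1-3p the nearest were miR-7016-3p (r = 0.68) and miR-7080-3p (r = 0.74), and the nearest to let-7d-3p was miR-7080-3p (r = 0.57). The nearest to let-7c-1-3p was miR-1a-2-5p (r = 0.77). These correlations run over arrays that share scaling and tissue. Of the miRNAs named, miR-7016-3p was detected on 5 arrays, miR-467d-3p on 6, miR-190a-5p on 10, miR-1a-2-5p on 11 and miR-3068-5p on 20. On most arrays their values are therefore signals not well above background. Detection was found on 38 arrays for miR-29a-5p, 41 for miR-150-5p, 42 for miR-7080-3p and 44 for miR-149-5p.

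The miRNAs of the clusters that host let-7 genes, of the miR-99, miR-100 and miR-125 families, are given by arm. Of 6 rows of their 3p arms 5 were analysed, and 1 was higher and 0 were lower in brain than in heart, and 4 of 5 guide rows were higher and 0 lower, where 47.1% of all miRNAs were higher and 22.0% lower. Between brain and liver 2 of the 3p rows were higher and 1 lower, and 5 of 5 guide rows were higher, where 57.9% of all were higher and 14.6% lower. The difference between the arms was not tested. The strand miR-99a-3p, from the hairpin next to let-7c-1, was detected on 15 of 16 brain, 1 of 15 heart and 0 of 14 liver arrays. The strand let-7c-1-3p itself was detected on 13 of 15 heart arrays. The strand miR-125a-3p, from the hairpin next to let-7e, was detected on all 45 arrays, with differences of 0.33 between brain and heart and 1.93 between brain and liver.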

How the data were processed

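Total RNA of mouse brain, heart and liver pieces was hybridised to 1-colour miRNA arrays (release 21). The authors extracted background-subtracted intensity values with Agilent Feature Extraction, summing per miRNA the probes it detected, and deposited them with a detection flag per array. The authors also deposited a table of log2 values after variance stabilizing normalization over the arrays, which is used here. Where a miRNA was not detected, these values follow the sum of all its probes. The scanner files are used for flags, unscaled signals and alternatives.

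The strands were taken by name, and the members, gene lists and tests were chosen with earlier results of these data known. Of 1881 miRNAs, 815 detected on at least 5 of 45 arrays were tested. Tissues were compared with limma 3.58.1 in R 4.3.3 on 33 arrays with RIN over 6, with the slide as a random block (consensus correlation 0.02) and Benjamini-Hochberg adjustment over 815 miRNAs at 0.05. The block's precision is limited by 6 slides. Storage time was related by Pearson's r, as in the methods, with 100000 permutations for the strands. Low- and high-RIN liver was compared by the exact Wilcoxon-Mann-Whitney test. Named outside the 7 strands were the family rows, their guides, cluster neighbours, tissue and blood miRNAs and the 3 most correlated miRNAs per strand. Scripts were tested on simulated data. The sum of all 4 probes, and fits without each slide, without the 4 °C liver piece of 0 h, without the RT brain piece of 1 h, or with the animal or its pieces of the same hour as a block were chosen after seeing the data. The labels give 12 h where the methods give 14 h. The number of arrays limits the precision.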

Additional observations from a re-analysis of the deposited data

Results flagged for a closer look

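Within the 6 sets of tissue and temperature, 7 of 42 sets of values held an array far from the others by Dixon's test, which by chance flags about 1 set in 20. Of these, 3 were the heart array of 96 h at RT, with the lowest RIN (2.2), which was the lowest heart array at RT for let-7a-1-3p (1.02, next 2.03), let-7c-1-3p (0.52, next 1.83) and let-7i-3p (0.28, next 1.13). On the liver array of 0 h at 4 °C, on which all guides were low, let-7d-3p (3.54, next 2.33) and let-7c-1-3p (2.43) were the highest of the 4 °C liver arrays. For let-7b-3p the liver array of 12 h at 4 °C was lowest (2.31, next 3.18), and for let-7e-3p the brain array of 96 h at 4 °C (1.57, next 2.39). On the former 2 probes were summed, against 4 on the other liver arrays at 4 °C. On the latter 1 probe was summed, against 2 on the other brain arrays. With all 4 probes summed both were still lowest, but nearer to the next array, at 3.05 (next 3.18) and 2.11 (next 2.48). The course of let-7d-3p over storage at RT differed between the tissues (limma, adjusted p = 0.0126), fitted on deposited values that mix unlike numbers of probes.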

How the results depend on the processing

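Over the 7 strands, 931 values were recomputed under alternatives. Of these 782 kept their direction and side of the threshold, or passed in neither setting, 85 no longer passed, 52 newly passed and 12 changed sign with a call under at least 1 of the settings compared. The 782 include 50 that changed sign and passed in neither setting. The cause was not tested in any case. The count of strands that differed between brain and heart (5) was 2 with scaling to the 75th percentile, 3 with no scaling between arrays, 1 with slide means, 2 on the RT slides alone, 3 without the brain slide of 4 °C and 2 without the heart slide of 4 °C. Between brain and liver (5) it was 3 with no scaling, 3 with slide means, 1 on the RT slides alone, 3 with RIN over 8 and 2 without the liver slide of 4 °C. Between heart and liver (2) it was 4 with no scaling, 4 with normexp, 5 with all 4 probes summed, 1 with no detection filter, 1 with slide means, 0 on the RT slides alone, 1 without the heart slide of 4 °C and 0 without the liver slide of 4 °C. For storage time at RT (4) it was 2 with the 75th percentile, 0 with no scaling, 0 with Bonferroni adjustment, 2 with rank correlation, 0 with RIN over 6 alone and 2 without the brain array of 1 h. For RIN (5) it was 0 with RIN over 6 alone. For low- against high-RIN liver (3) it was 5 with quantile normalization, 1 with no scaling, 6 with normexp and 5 with all probes summed, and it lay between 3 and 4 when 1 liver array was left out.

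The changes of sign were those of let-7a-1-3p between brain and heart (-0.47 with quantile normalization, -0.092 with normexp), between brain and liver (-0.13 with normexp) and between heart and liver (-0.058 with the 75th percentile, -0.040 with normexp), of let-7i-3p between brain and heart (0.29 with no scaling), and of let-7f-1-3p between brain and liver (0.17 on the RT slides alone). With no scaling, on log2 values with the probe sums as deposited, r with storage time at RT was 0.18 for let-7d-3p, r with RIN was -0.33 for let-7b-3p, and the liver difference was 0.66 for let-7a-1-3p. With RIN over 6 alone r with RIN was -0.048 for let-7a-1-3p and -0.027 for let-7e-3p.

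The tissues kept at 1 temperature came from the same animal, and with the animal as a replicate block the counts were 5 between brain and heart, 5 between brain and liver and 2 between heart and liver. With the pieces of the same animal and hour as a replicate block they were 4, 4 and 1, and the calls lost were those of let-7f-1-3p (-0.41), let-7b-3p (-0.61) and let-7a-1-3p (0.40). Replicate numbers in the labels pair no arrays, since each is 1. Signals a few scanner units above background limit how exactly dim strands can be compared.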

Other observations

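The family row let-7k, which carries the guide seed GAGGUAG and no arm name, was detected on 23 of 45 arrays and rose with storage time at RT (r = 0.46, adjusted p = 0.047 over 24 arrays), from 2.70 to 4.08 in brain, from -0.10 to 3.39 in heart and from 0.61 to 2.25 in liver between 0 h and 96 h. No guide or passenger strand of the family had a called rise over these 24 arrays. Within liver alone r was 0.62 for let-7d-3p, 0.22 for let-7f-1-3p and 0.09 for let-7b-3p, and negative for the other strands. Of all 815 miRNAs 36.4% rose at RT. The row let-7k was detected on 2 of 13 heart and 0 of 6 liver arrays with RIN over 6, so its heart and liver values at 0 h are signals not well above background.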
